A study of Drosophila melanogaster with 6 samples.

Results

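The data described here are the control testes of a Drosophila melanogaster RNA-seq series, taken alone. By their labels, 3 of the 6 samples are controls (replicates 1, 2 and 3), and all genes of the count files were described in these 3. The other 3 samples overexpress miR-2b-1 under the same driver and were not used. The control genotype is actin5C-Gal4>w1118, that is, the F1 males of flies carrying the Act5C-GAL4 driver crossed to w1118. These males carry the GAL4 activator in a broad range of cells but no UAS transgene for it to switch on, and the label calls them wild type. One passage of the study names OreR in place of w1118. Adult testes were dissected at 3 to 5 days of age from crosses held at 28 °C, and each replicate is a pool of testes (pool 1, 2 and 3 below). The labels do not say whether the pools came from separate crosses, so the spread between them may be partly technical. The files hold whole-number counts for 17559 genes in each sample.

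The fly testis is a blind tube in which sperm development runs from one end to the other. At the tip, hub cells hold germline stem cells and cyst stem cells, and their daughters become spermatogonia enclosed by cyst cells. Spermatocytes then switch on a large set of genes used only in the male germline, under a testis form of the MuvB complex (tMAC) and testis-specific TBP-associated factors. Many of these mRNAs are kept until spermatids translate them to build the sperm tail and to pack the sperm chromatin. Whole testes were sequenced, so fewer cells of a type and less RNA per cell cannot be told apart in any level given here.

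The total count was 18047619, 20282355 and 18596374 in pools 1, 2 and 3. Levels are given as CPM, the count divided by the pool's total and multiplied by 1000000, so 1 count is worth 0.0554, 0.0493 and 0.0538 CPM in the 3 pools. A count was found in at least 1 pool for 15251 genes and in every pool for 13688. No count was found for 2308 genes, which allows a level of up to 0.0527 CPM for each (3 counts over the 3 pools). At 1 CPM or more in all 3 pools, 10674 genes were detected, of which 9615 are protein coding, out of 13685 protein coding genes in the files. Symbols and positions (BDGP6 assembly, Ensembl annotation) were matched for 17253 genes. The 306 unmatched identifiers took 2.98 ± 0.175% of the counts (SD, n = 3). No pair of pools was the same library deposited again: a chi-square of the gene counts exceeded its degrees of freedom at least 38.6 times in each pair. Across the 6717 genes with a mean of 10 CPM or more, Pearson's r of the log2 levels was 0.978 between pools 1 and 3, 0.886 between pools 1 and 2, and 0.907 between pools 2 and 3. These correlations are across genes, which are not independent replicates. Counting intervals in this report cover counting error only.

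Few genes made up most of the RNA counted. The single highest gene of each pool took 1.08 ± 0.187% of the counts (SD, n = 3), the 10 highest 6.05 ± 0.251%, the 100 highest 25.9 ± 1.09% and the 1000 highest 66.95 ± 1.93%. In pool 1, 506 genes held 50% of the counts, in pool 2 442 and in pool 3 421, while 90% of the counts took 3414, 3036 and 3004 genes. Pool 1 was the least concentrated of the 3 by each of these measures except the highest gene, where its share was the largest. The 3 pools largely shared their leading genes, with 8 of the 10, 26 of the 30 and 84 of the 100 highest genes common to all 3.

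Sperm tail genes and short genes known only by an annotation number led the ranking. Among the 30 genes of highest mean level, 28 were matched to the annotation and 17 of these carry a CG number in place of a name. Of all 17559 genes in the files, 6009 carry such a number. None of the 28 lies on the X or the Y chromosome, while 10 lie on 2R, 8 on 3R, 5 on 2L and 5 on 3L. The median length of their exons together was 1315.5 bases, against 1930 bases for all detected protein coding genes. The lowest of the 30 had a mean of 2853 CPM. The highest level of a gene was 1.18 times its lowest in the median, and neighbours in the ranking did not differ beyond their spread in 27 of the 29 adjacent pairs.

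CG18628 (FBgn0036091, chromosome 3L, 10639740 to 10640136), whose exons add up to 334 bases, had the highest mean. It measured 12747, 9018 and 5702 CPM in pools 1, 2 and 3, the widest range of the 30 at 2.24-fold. It ranked first in pools 1 and 2 and at place 5 in pool 3. The next identifier, FBgn0038762, was not matched to the annotation and had 6873, 8369.9 and 10705 CPM, the reverse order of pools. The other gene of the 30 that was not matched, FBgn0267727, had 2967, 3555 and 3519.9 CPM.

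Sperm leucyl aminopeptidases, enzymes of the leucyl aminopeptidase fold that are among the most abundant proteins of fly sperm, held several of the next places. S-Lap1 (FBgn0035915, chromosome 3L, 8617235 to 8619474) had 6802, 8129 and 7912 CPM. S-Lap7 (FBgn0033868, chromosome 2R, 13778124 to 13780245) had 4725, 5394 and 6357 CPM, and S-Lap4 (FBgn0052064, chromosome 3L, 10490861 to 10492934) had 4171, 4847 and 5109 CPM. For these 3 genes pool 1 was the lowest, and the ranges of S-Lap7 and S-Lap4 overlapped. loopin-1 (FBgn0259795, chromosome 2R, 16534943 to 16537086), a protein of the same family in the sperm mitochondrial derivative, had 4646, 5478 and 5699.6 CPM. S-Lap3 (FBgn0045770, chromosome 3L, 10465187 to 10468974) closed this group at 3089, 3670.2 and 3229 CPM.

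Other named genes of the 30 have roles in spermatids. Mst87F (FBgn0002862, chromosome 3R, 13827151 to 13828008), whose exons overlap lncRNA:CR43300, encodes a cysteine-rich sperm tail protein and had 3414, 3174 and 2809 CPM. Mst98Ca (FBgn0002865, chromosome 3R, 28291338 to 28292656), a tail protein of the same kind, had 2618, 2891 and 3051 CPM. betaTub85D (FBgn0003889, chromosome 3R, 9408383 to 9410282), the beta-tubulin of meiotic spindles and sperm axonemes, had 2667, 3010.4 and 2975 CPM. In each of these the highest pool was within 1.22 times the lowest. The cup gene w-cup had 2872, 3172 and 3065 CPM. exu, known for placing bicoid mRNA in the egg and needed in male germ cells too, had 2862, 3175 and 3059 CPM, and ocn, which lies beside janA and janB, had 2716, 3062 and 3144 CPM. These 3 were again close between pools, with pool 1 the lowest.

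After CG18628, the numbered genes of the 30 ranged from 5064 ± 764 CPM (mean ± SD, n = 3) for CG33340 (FBgn0053340, chromosome 3R, 24363138 to 24364289) down to 3036 ± 154 CPM for CG17377. Between them came CG8701, CG12860, CG12699, CG10252, CG5089, CG31740, CG17376, CG31226, CG2127, CG12861, CG3124, CG14995, CG3213 and CG31538. CG17376 (FBgn0042189, chromosome 2L, 6799946 to 6800894) was the most even of the 30, with 4046, 3963 and 3933 CPM. CG5089 was among the less even, with 3621, 4168 and 5229.9 CPM and pool 3 the highest. The exons of CG33340 overlap CG17784 and CG33339, those of CG31740 overlap CG42634, CG42635 and elfless, and those of exu overlap galla-1, so their counts depend on how shared reads were assigned.

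**Figure D1:**
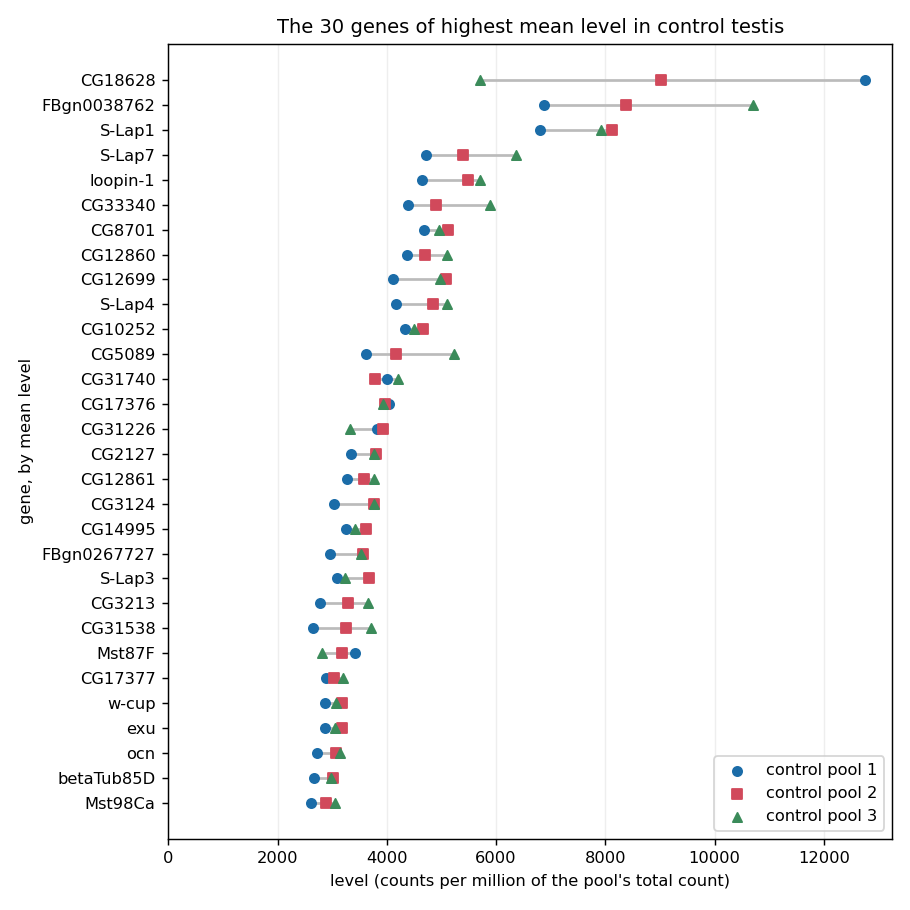
Level of the 30 genes of highest mean CPM in the 3 control pools. The x axis is CPM and starts at 0, each point is 1 pool and each line joins the lowest and highest pool of a gene. CG18628 runs from 5702 to 12747 CPM, while most of the other genes keep their 3 pools close together.

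Per kilobase of exon length the order changed toward short genes, and this scale alone allows levels of different genes to be compared. Of the 30 genes of highest mean CPM, 14 were also among the 30 highest by CPM per kilobase, whose median exon length was 612.5 bases. CG18628 remained first, at 27412 CPM per kilobase, followed by CG31226 at 9500.4, CG31740 at 6598 and CG12699 at 6164. On this scale 3 genes of the Mst84D cluster entered. These were Mst84Dd (FBgn0004175, chromosome 3R, 7363307 to 7363773) at 5427, Mst84Dc (FBgn0004174, chromosome 3R, 7364254 to 7364673) at 5363 and Mst84Db (FBgn0004173, chromosome 3R, 7365160 to 7365627) at 5133 CPM per kilobase. The numbered genes CG34168, CG12853, CG15219, CG46059, CG31820, CG9920, CG9016, CG30430 and CG30376 entered too, with 5584 CPM per kilobase for CG34168 and 2721 for CG30376. RpL41, which encodes the smallest protein of the large ribosomal subunit, had 2980.5 CPM per kilobase. Mst57Da and CG43147, at 2922 and 4201 CPM per kilobase, owed their places to pools 1 and 3, since CG43147 had 1905, 25.5 and 1346 CPM and Mst57Da 1791, 30.6 and 1028 CPM.

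The genes fell into classes of mean level that held very unequal shares of the counts. The 139 genes of 1000 CPM or more, under 1% of all genes, held 29.99 ± 1.29% of the counts (SD, n = 3). The 1865 genes from 100 to 1000 CPM held 52.0 ± 0.209%, the largest share and the most even over the pools. The 4713 genes from 10 to 100 CPM held 15.8 ± 1.21%, the 4724 genes from 1 to 10 CPM 2.07 ± 0.267%, and the 3810 genes counted at under 1 CPM 0.110 ± 0.0111%. A gene of the top class was in that class in every pool for 117 of 139, and in the 100 to 1000 class for 1659 of 1865. Below 1 CPM, 1912 of 3810 were under 1 CPM but counted in every pool. Numbered CG genes made up 51.9% of the matched genes in the top class, 49.0% from 100 to 1000 CPM and 33.8% from 10 to 100 CPM. Their part was 35.0% from 1 to 10 CPM, 36.6% under 1 CPM and 21.1% of genes with no count. All 6009 numbered genes, of 17559 in the files, together took 47.2 ± 0.630% of the counts.

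Several genes of the top class sit beside each other. Of its 132 protein coding genes, 24 (18.2%) had a protein coding gene of the same class as their direct neighbour, while the class holds 0.965% of the annotated protein coding genes. A gene was counted if the neighbour on either side was in the class, while 0.965% holds for a single gene, so the contrast is overstated. This is a description, and no test was run. On 3R, CG1979, dj, djl and Mst84B follow each other with gaps of 643, 242 and 255 bases, and dj, a sperm mitochondrial and tail protein, had 2687 ± 289 CPM. Mst84Dd, Mst84Dc and Mst84Db follow with gaps of 480 and 486 bases. Mst98Ca and Mst98Cb lie 141 bases apart and had 2853 ± 219 and 1886 ± 173 CPM. On 2R, CG18449, CG2127 and CG8701 are neighbours, as are CG12861 and CG12860. S-Lap1 and S-Lap2 lie 413 bases apart on 3L, at 7614 ± 712 and 2712 ± 323 CPM. The other pairs were CG17376 with CG17377 and CG42688 with CG46059 on 2L, and scpr-B with scpr-A and Ppi1 with CG31029 on 3R.

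The X chromosome held a smaller share of the counts than of the genes. It has 14.8% of the genes in the files and held 8.26, 8.24 and 8.23% of the counts in pools 1, 2 and 3 (8.24 ± 0.0189%, SD, n = 3). The autosomal arms 2L, 2R, 3L and 3R held 21.3 ± 0.391%, 21.2 ± 0.271%, 19.6 ± 0.484% and 26.4 ± 0.399% of the counts. The share of genes detected did not follow this difference, at 61.5% for X and 58.9% to 63.0% for these 4 arms. Detected X genes had a median of 6.05 CPM per kilobase (1598 genes) and those of the 4 arms 9.50 (8796 genes), a ratio of 0.637. Within pools 1, 2 and 3 this ratio was 0.659, 0.664 and 0.652. In CPM, without length, the ratio of the medians was 0.760. The difference widened with level. X held 15.1% of the matched genes with no count, 16.7% from 1 to 10 CPM, 15.2% from 10 to 100 CPM, 11.5% from 100 to 1000 CPM and 4.44% of those of 1000 CPM or more. At 1000 CPM or more there were 6 of 2600 X genes (0.231%), against 129 genes of the 4 arms (0.896%).

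Long noncoding RNAs stood high among the X genes. lncRNA:CR32652 (FBgn0052652, chromosome X, 12411018 to 12412181) was the highest, with 1675, 1844 and 1787 CPM, and lncRNA:CR32658 had 1311, 1572 and 1745 CPM. The other 4 X genes of 1000 CPM or more were CG1324, CG1394, TrxT and CG44774, at 1579.7 ± 506, 1304 ± 98.7, 1154 ± 79.2 and 1025 ± 141 CPM. TrxT encodes the testis thioredoxin. Of all noncoding RNAs, lncRNA:CR9284 (FBgn0046297, chromosome 2R, 21803402 to 21804338) on 2R was the highest, with 2268, 2434 and 2389 CPM, and its 3 pools kept within 1.07-fold. Noncoding RNA genes took 2.22 ± 0.0540% of the counts and protein coding genes 94.7 ± 0.114%. Pseudogenes took 0.111 ± 0.0106%, led by CR33319 at 204 ± 20.5 CPM. Small RNAs were nearly absent from these counts. The leading snoRNA, snoRNA:Or-CD8, had 4.81 ± 0.0530 CPM, the leading snRNA, snRNA:U12, 3.54 ± 0.954 CPM, and the leading tRNA, tRNA:Met-CAT-1-2, 0.239 ± 0.179 CPM. The leading rRNA gene had 1 count in 1 pool.

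**Figure D2:**
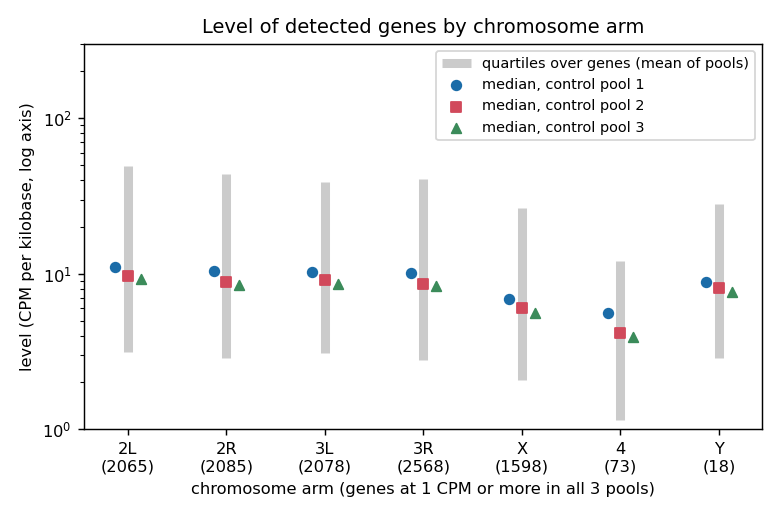
Levels of genes detected at 1 CPM or more in all 3 pools, by chromosome arm, in CPM per kilobase on a log axis, with the number of genes in parentheses. Points are the medians of the 3 pools and grey bars the quartiles over genes. The medians of X lie below those of 2L, 2R, 3L and 3R in each pool.

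The small chromosomes differed from one another. The Y chromosome held 0.0486 ± 0.000993% of the counts, and 18 of its 71 genes were detected. Y genes of Drosophila act in male fertility, and several encode dynein heavy chains of the sperm tail. Of 12 listed Y genes, 11 were detected and together the list took 0.0363 ± 0.000751%. CCY (FBgn0267592, chromosome Y, 3649996 to 3666928), a coiled-coil protein, led by CPM with 64.3, 70.0 and 66.9. ARY, an aldehyde reductase gene, had 65.9 ± 5.64 CPM, and per kilobase it was above CCY, at 47.4 against 16.8. The dynein heavy chain genes kl-5, kl-2 and kl-3 had 59.9 ± 3.39, 35.1 ± 2.30 and 27.7 ± 1.01 CPM. Their exons are long, so in CPM per kilobase they were at 4.38, 2.62 and 1.99. Pp1-Y2 had 43.0 ± 3.69 CPM, while Pp1-Y1, a related phosphatase gene, had 0 counts in all 3 pools. Mst77Y-7 (49.3 ± 2.94 CPM) and Mst77Y-13 (13.7 ± 1.08 CPM) belong to a family of near-identical copies, so their counts are uncertain. On chromosome 4, 73 of 110 genes were detected, and the ribosomal protein gene RpS3A led with 226 ± 67.0 CPM. All 37 genes of the mitochondrial genome and all 19 listed on the rDNA unit had 0 counts in every pool. Genes such as mt:CoI, a subunit of the last respiratory complex, are transcribed in nearly all fly cells. The 0 was therefore not read as absence of expression, and its cause was not tested.

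Sperm tail genes took the largest share of any list of known roles. The lists of sperm tail, Mst tail protein, sperm chromatin and comet and cup genes hold 47 genes, which together took 6.25, 7.10 and 6.98% of the counts in pools 1, 2 and 3. With w-cup, which no list holds, the mean share of these 48 genes was 7.08 ± 0.474%, against 6.78 ± 0.459% for the 47. Counting error is small for such shares, with 95% exact binomial intervals no wider than 0.00935 points to either side for any list. Members were written from known roles, and all list values are descriptions.

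The sperm tail and mitochondrial derivative list had 17 measured genes, all at 100 CPM or more and 11 at 1000 CPM or more, and took 4.18 ± 0.386% of the counts. Beside the S-Lap genes it held dj, and Porin2 (FBgn0069354, chromosome 2L, 10845788 to 10847044), a paralog of the mitochondrial outer membrane channel porin, with 1303, 1409 and 1483 CPM. fzo, the mitofusin that fuses spermatid mitochondria into the nebenkern, had 152, 157 and 138 CPM. Pool 1 was the lowest for 14 of 17 members, and with TMM scaling (edgeR's trimmed mean method, which moves the ratio of pool 1 to pool 3 by -0.12 on the log2 scale) for 15 of 17. Over all 6717 genes of 10 CPM or more, without TMM scaling, pool 1 was lowest for 9.99% with pool 2 highest and for 15.7% with pool 3 highest.

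In the list of Mst84D, Mst87F and Mst98C tail proteins, 6 of 7 genes were at 1000 CPM or more, and it took 1.42 ± 0.0451%. The seventh, Mst84Da (FBgn0004172, chromosome 3R, 7365850 to 7366262), had 1.22, 1.48 and 1.08 CPM, although it lies in the same cluster as Mst84Db. Its exons overlap MstProx, and whether that bears on its count was not tested.

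The sperm chromatin list took 0.676 ± 0.0864%. It holds the proteins that replace histones as the spermatid nucleus condenses. Mst77F (FBgn0086915, chromosome 3L, 20816901 to 20818027), a linker histone relative of sperm chromatin, led with 2503, 2856 and 1962 CPM. The protamine-like genes ProtB and ProtA had 1181 ± 120.2 and 549 ± 92.9 CPM, and tHMG2, Tpl94D, tHMG1 and Prtl99C lay between 383 ± 43.0 and 873 ± 66.3 CPM. Pool 3 was the lowest for Mst77F and pool 2 the highest for all 7 genes under either scaling. Over all 6717 genes of 10 CPM or more, without TMM scaling, pool 2 was highest for 9.99% with pool 1 lowest and for 23.3% with pool 3 lowest.

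Comet and cup genes are transcribed after meiosis, at a time when most other transcription has ended. Of the 16 listed, 12 were at 100 CPM or more and together they took 0.502 ± 0.0297% of the counts. Among the listed genes boly, soti and schuy led, with 755 ± 66.1, 749 ± 44.6 and 617 ± 24.2 CPM, and soti is an inhibitor that limits caspase activation in spermatids. The list leaves out w-cup, which was far above each of them, and with it the 17 genes took 0.806 ± 0.0449%. cola and swif had 0 counts in each pool. Both have the same span, so every read of one also overlaps the other, and their 0 says nothing of their expression.

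The list of spermatocyte regulators, which also holds the meiotic genes bol and twe, took a smaller share than the sperm tail, chromatin and cup lists. The 16 spermatocyte regulators took 0.166 ± 0.0149% of the counts and all were detected. bol, the RNA-binding protein of the DAZ family needed for meiotic entry, stood apart with 999.8, 1179.7 and 1006 CPM. It made up most of the list's share, so the other regulators were lower than that share shows. twe, the Cdc25 phosphatase of meiosis, had 134, 136 and 106 CPM. The tMAC subunits aly, comr, topi, tomb and mip40 had 19.9 ± 3.60, 4.83 ± 0.616, 49.9 ± 1.57, 13.4 ± 2.50 and 73.7 ± 11.6 CPM. Among the testis TAFs, nht was the least even, with 19.4, 18.6 and 8.60 CPM.

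Markers of the testis tip were low. In the germline stem cell and spermatogonia list, 12 of 14 genes were measured and 8 detected, with 0.0214 ± 0.00104% of the counts, while zpg, nanos, stg and ovo were under 1 CPM in at least 1 pool. By CPM the list's leading gene was mei-P26, a translation regulator, with 86.7, 101 and 113 CPM. Its exons are long, and per kilobase it was at 4.32, below bgcn at 15.2, tut at 9.98 and AGO3 at 7.04. bam, the switch from spermatogonial division to differentiation, had 3.60, 2.42 and 1.40 CPM, while its partners bgcn and tut had 63.1 ± 6.52 and 10.4 ± 2.69 CPM. AGO3, an Argonaute of the piRNA pathway, had 26.3, 23.9 and 16.9 CPM, and nanos, a translational repressor of germline stem cells, had 2.05, 0.937 and 1.08 CPM. The 4 hub genes took 0.00867 ± 0.000455%, among them upd1, the ligand that signals to both stem cell types, with 23.1, 26.8 and 21.7 CPM. The cell adhesion genes CadN and Fas3 of the same list had 30.3 ± 2.96 and 24.5 ± 1.58 CPM, and both are used in other tissues too. Of 8 cyst cell genes, 7 were detected. chinmo, eya and so had 82.0 ± 7.196, 31.0 ± 1.13 and 33.6 ± 3.53 CPM, but tj, an early cyst cell marker, was not detected at 1 CPM in all pools, with 0.665, 0.493 and 0.108 CPM. By share, the hub list and the germline stem cell list were below the muscle and fat body lists, which took 0.119 and 0.0350% of the counts. Shares are sums over lists of different length. The median member had 24.2 CPM in the hub list and 2.55 in the germline stem cell list, against 26.7 for muscle and 6.38 for fat body. The share of the eye list was below those of the hub and germline stem cell lists, at 0.00641 ± 0.000460%, yet its leading gene Arr1 had 28.7 ± 3.95 CPM. Per kilobase, Arr1 was at 11.6 CPM and upd1 at 7.63. No cell type was therefore read as present or absent from these low levels.

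**Figure D3:**
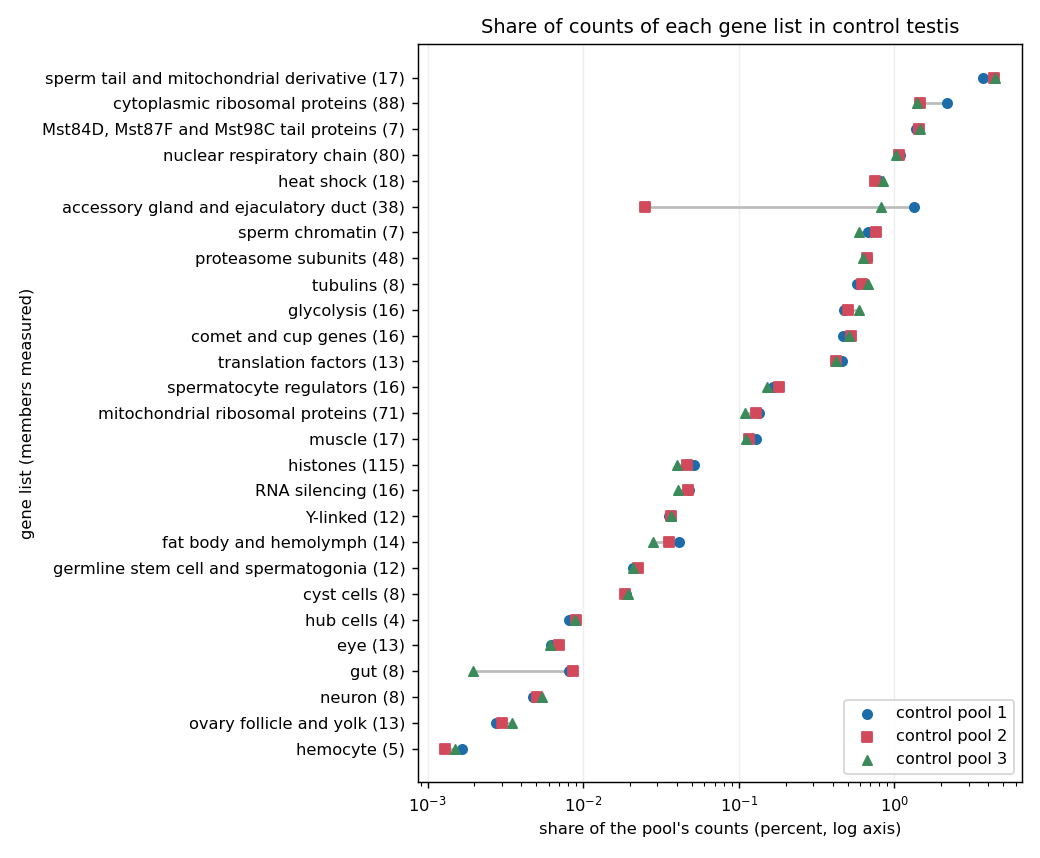
Share of each pool's counts taken by each gene list, in percent on a log axis, with the number of measured genes in parentheses. Each point is 1 pool and each line joins the lowest and highest. Most lists agree closely between pools, while the accessory gland and ejaculatory duct list runs from 0.0250% in pool 2 to 1.34% in pool 1.

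In most of the pairs compared here, the paralog was higher than its counterpart. Many fly genes of energy metabolism, protein turnover and transcription have a duplicate, and several of these duplicates are known for expression in testis. A set of 51 pairs was compared per kilobase. It was made of proteasome and respiratory chain genes whose symbol is that of another gene plus R, T or L, and of 18 pairs chosen after the list values had been seen. In 42 pairs the paralog was above its counterpart in the sense that its lowest pool exceeded the counterpart's highest, in 4 pairs it was below in the same sense, and in 5 the ranges met. Among the pairs set by symbol, the paralog was above in 11 of 16 proteasome and 14 of 17 respiratory chain pairs. Of the 18 pairs chosen after values were seen, only that of nht and Taf4 was not above. The pooled count therefore rests in part on pairs picked with their values known, and so does the median ratio. That median was 4.03, with a paralog at 0 counted as a ratio of 0. These are descriptions with n = 3 pools, and no test was run.

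The largest ratios were in glycolysis. Hex-t2, a testis hexokinase, had 451, 496 and 603 CPM per kilobase in the 3 pools and Hex-A 8.58, 5.94 and 5.64. Pglym87, a phosphoglycerate mutase, had 859, 937 and 1239 CPM per kilobase and Pglym78 28.2, 15.2 and 13.1. Both ratios were lowest in pool 1, where the counterparts were highest. TrxT exceeded Trx2 28.8-fold, at 1041 ± 71.5 against 36.2 ± 8.17 CPM per kilobase.

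Respiratory chain paralogs were above their counterparts in 14 of 17 pairs. COX4L, a paralog of cytochrome c oxidase subunit 4, had 1089.7, 1167 and 1074 CPM per kilobase against 82.2, 44.6 and 58.3 for COX4. UQCR-11L exceeded UQCR-11 25.1-fold, COX7CL exceeded COX7C 14.6-fold and COX7AL exceeded COX7A 4.62-fold. In the other direction COX7AL2 was far below COX7A, at 5.33 ± 2.21 against 120.1 ± 18.005 CPM per kilobase. COX5BL, a paralog, and UQCR-14, a counterpart, had 0 counts. The exons of both lie wholly within those of other genes, so these pairs, counted as 1 lower and 1 higher above, show no order. The 80 nuclear respiratory chain genes took 1.06 ± 0.0347% of the counts. UQCR-C1, a core subunit of complex III, and ND-13A of complex I were among the 3 highest, with 533 ± 67.0 and 386 ± 20.1 CPM.

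Proteasome paralogs were above their counterparts in 11 of 16 pairs. Prosalpha6T, a testis subunit of the 20S core, had 214, 227 and 209 CPM per kilobase against 42.0, 30.5 and 21.5 for Prosalpha6. Rpn12R exceeded Rpn12 12.1-fold, Prosbeta5R1 exceeded Prosbeta5 6.58-fold and Rpt3R exceeded Rpt3 6.52-fold. Prosalpha3T and Rpn13R were lower than Prosalpha3 and Rpn13, with ratios of 0.208 and 0.438. For Prosbeta5R2 and Prosbeta5 the ranges met, at 43.4 ± 6.99 and 41.3 ± 9.31 CPM per kilobase. By CPM without length, Rpn6 of the regulatory particle led the proteasome list with 382 ± 18.02 CPM, before Prosbeta4R2 and Prosbeta1 with 323 ± 23.3 and 304 ± 5.89 CPM.

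Most other pairs had the same direction. The chaperonins Hsp60B, Hsp60C and Hsp60D were above Hsp60A, which had 114, 111 and 113 CPM per kilobase, by 5.24, 9.79 and 2.16-fold. Hsp60C (FBgn0031728, chromosome 2L, 5662849 to 5670838) had 977, 1088 and 1250.1 CPM per kilobase. The translation factors eIF4G2 and eIF4E3 were above eIF4G1 and eIF4E1 by 11.2 and 3.20-fold. Porin2 exceeded porin 11.5-fold, tomboy40 exceeded Tom40 8.11-fold, fzo exceeded Marf 3.02-fold and tomboy20 exceeded Tom20 2.71-fold. Of the testis TAFs, Taf12L exceeded Taf12 14.3-fold, can exceeded Taf5 9.32-fold, mia exceeded Taf6 2.88-fold and sa exceeded Taf8 2.63-fold. The ranges of nht and Taf4 met, at 16.4 ± 6.36 and 15.7 ± 1.42 CPM per kilobase, and their order turned in pool 3. Of the 42 different counterparts 13 lie on X, as do 3 of the 51 paralogs, while X has 14.8% of all genes in the files. Some of these pairs were picked with their values known, so these counts are only a description of the set.

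**Figure D4:**
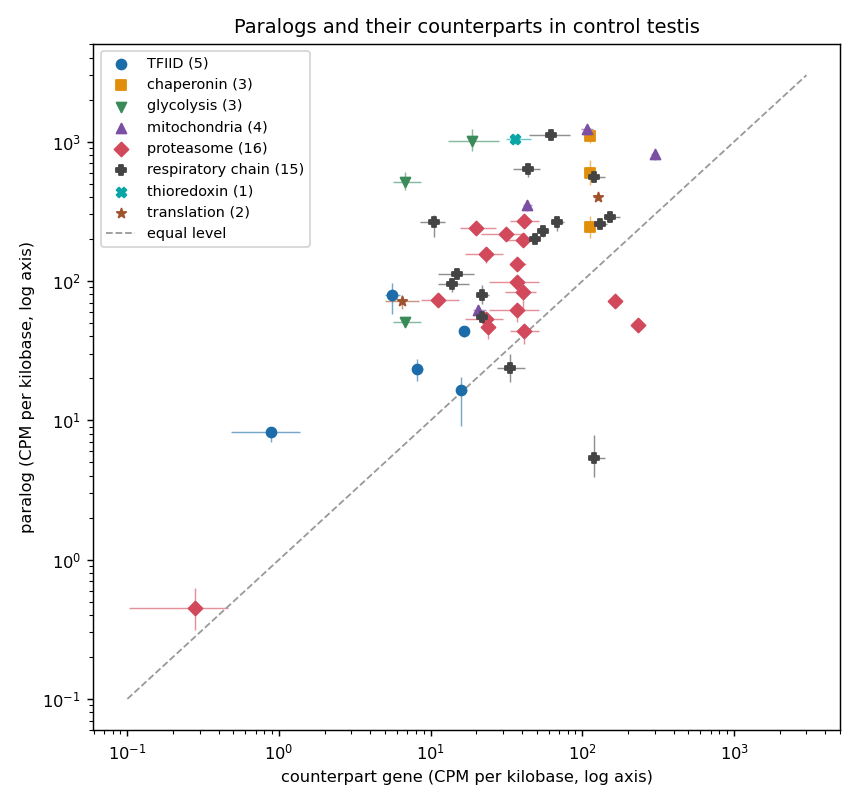
Mean level of each paralog (y axis) against that of its counterpart (x axis) in CPM per kilobase, both log axes, for the pairs in which both had counts. Lines span the 3 control pools and the dashed line marks equal levels. Most pairs lie above the line, with Prosalpha3T, Rpn13R, ATPsynbetaL and COX7AL2 below it.

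Ribosomal protein genes were highest in pool 1. Of 88 cytoplasmic ribosomal protein genes, 87 were detected and 72 were at 100 CPM or more, and the list took 2.18, 1.47 and 1.40% of the counts in pools 1, 2 and 3. Pool 1 was the highest for 84 of 86 genes with a mean of 10 CPM or more, and for 83 of 86 with TMM scaling. Over all 6717 genes of that level, without TMM scaling, pool 1 was highest for 13.8% with pool 2 lowest and for 30.7% with pool 3 lowest. RpL41, RpLP2 and RpS29 led, with 954 ± 217, 572 ± 47.3 and 374 ± 65.8 CPM. Proteasome subunits took 0.656 ± 0.0223%, glycolysis genes 0.524 ± 0.0594%, translation factors 0.434 ± 0.0247% and mitochondrial ribosomal proteins 0.124 ± 0.0132%. Ald1, the glycolytic aldolase, had 743 ± 70.6 CPM. The poly(A)-binding protein pAbp led the translation factors with 1198, 1017 and 1071 CPM, and the helicase eIF4A had 610.1 ± 36.8 CPM. The highest mitochondrial ribosomal protein genes, mRpS17, mRpL28 and mRpS10, had 82.9 ± 7.08, 66.4 ± 1.98 and 55.5 ± 4.69 CPM. RNA silencing genes were low at 0.0452 ± 0.00377%, led by loqs, a double-stranded RNA-binding partner of Dicer, with 189.7, 207 and 189 CPM. AGO1 and Dcr-1, which act in the miRNA pathway, had 19.9 ± 3.24 and 7.14 ± 1.95 CPM. AGO2, of the siRNA pathway, had 34.4 ± 6.397 CPM, and mael, which acts in piRNA silencing of transposons, had 35.4 ± 5.58 CPM. Among tubulins, alphaTub84B (2347, 2447 and 2952 CPM) and alphaTub84D (595, 643 and 725 CPM) followed betaTub85D. In the heat shock list, Hsp83 had 1053 ± 86.7 CPM and Hsc70-4 995 ± 47.4 CPM. Of the histone genes in the files, 109 had no count in any pool. The 4 with a mean of 10 CPM or more were His3.3A, His3.3B, His2Av and His4r, genes that lie outside the repeated histone cluster, at 141 ± 19.2, 126 ± 14.4, 101 ± 8.38 and 89.1 ± 20.3 CPM. The repeated copies are near-identical, so their reads map to several places, and whether that set their 0 counts was not tested.

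Between the pools, most genes of 10 CPM or more were steady and a small group was not. Over the 6717 genes the median coefficient of variation (CV, SD over mean of the 3 pools) was 11.2%, with quartiles of 6.99 and 17.5%, against 3.58% from counting alone. A CV under 10% was found for 2913 genes (43.4%). The median CV was 21.6% for genes from 1 to 10 CPM, 12.6% from 10 to 100 CPM, 8.76% from 100 to 1000 CPM and 9.72% at 1000 CPM or more, while counting alone gave 11.8, 4.56, 1.58 and 0.578%. Across all genes that passed edgeR's filter, the common biological coefficient of variation was 0.257. It was 0.201 without pool 2, 0.284 without pool 1 and 0.307 without pool 3.

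The most even genes differed by less than 2% between pools. By the ratio of highest to lowest pool, among genes with a mean of 100 CPM or more, Usp8, a deubiquitinating enzyme, was first with 102, 102 and 102 CPM. Uba1, the ubiquitin-activating enzyme, had 181, 179 and 181 CPM, and SkpF, a testis relative of the SCF ligase subunit SkpA, had 261, 260.4 and 257 CPM. The others of the 10 were CG34168, CG43800, CG15657, CG32061, CG5623, ND-42 and CG15577. The ratios of the 10 lay between 1.00 and 1.02, the smallest among the 2004 genes ranked. All but CG34168 had a CV below that from counting alone, such as 0.134% against 2.27% for Usp8. Their place as the most even therefore does not show that they are steadier than other genes.

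A range over 2-fold was found for 367 genes (5.46%) and over 10-fold for 164. Of the 367, 263 were lowest in pool 2, 99 were lowest in pool 3 and highest in pool 1, and 5 had another order. The 20 genes with the widest range were all lowest in pool 2, and 19 of them were highest in pool 1. The widest was that of CG43789 (FBgn0264330, chromosome 2R, 16938696 to 16938995), with 20.4, 0.0493 and 11.5 CPM, which rests on 1 count in pool 2, so its ratio of 414.7 has a 95% counting interval from 73.97 to 16423. CG31680, with 69.5, 0.247 and 31.9 CPM and 5 counts in pool 2, had a ratio of 282 (120.5 to 869.6). The remaining ones were CG6149, Sfp38D, Sfp24C1, CG43185, CG43788, Sfp36F, Mst57Db, CG45011, CG31419, Sfp51E, CG9029, CG43145, lncRNA:CR43239, Qsox2, CG34447, lncRNA:CR44389, Acp98AB and Sfp78E, with ratios of 93.2 to 240.0. The symbol Sfp stands for seminal fluid protein and Acp for accessory gland protein.

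Known seminal fluid genes were among those low in pool 2, although most genes of that group are not on the list used here. The accessory glands and ejaculatory duct lie beside the testes in the male reproductive tract and make the proteins passed to the female with sperm. The list of 38 such genes took 1.34% of the counts in pool 1, 0.0250% in pool 2 and 0.818% in pool 3. Of its members with a mean of 10 CPM or more, 33 of 33 were lowest in pool 2. Members could reach that mean through pools 1 and 3 alone, so the filter partly set this count. Mst57Da, Mst57Db and Mst57Dc were placed on the list after their values were seen. Over all 6717 genes, 13.8% were lowest in pool 2 with pool 1 highest, and 6.43% with pool 3 highest. Acp36DE (FBgn0011559, chromosome 2L, 18356047 to 18359028), which aids sperm storage in the female, had 2422, 50.5 and 1381 CPM. SP, the sex peptide that changes female behaviour after mating, had 184, 2.47 and 153 CPM, and Acp26Aa, the ovulation prohormone ovulin, had 667, 12.5 and 408 CPM. Mst57Da had 1791, 30.6 and 1028 CPM, and Acp53C14b 1047, 18.2 and 707 CPM. In each case pools 1 and 3 were high and pool 2 was low, and the same was measured for lectin-46Ca, lectin-46Cb and aqrs, which act with SP in the female. The list's share differed 53.8-fold between pools 1 and 2, yet none of the 33 was at 0 in pool 2. Among the members under 10 CPM the ejaculatory bulb proteins Ebp and EbpII went the other way, with 1.94, 11.6 and 0.860 CPM for Ebp and 0.0554, 2.56 and 0.0538 CPM for EbpII, and Sfp87B had 0.0554, 4.24 and 0.108 CPM.

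In all, 152 genes were more than 10-fold lower in pool 2 than in both other pools. They took 3.24, 0.0571 and 2.02% of the counts in pools 1, 2 and 3. Of these, 30 were on the accessory gland list, 18 carry a Sfp symbol, 15 an Acp symbol and 77 a CG number (6009 of all 17559 genes do). Their median ratio of pool 1 to pool 2 was 52.2 and of pool 1 to pool 3 was 1.68, with 146 of 152 higher in pool 1 than in pool 3. The highest numbered members were CG17097 (2091, 45.5 and 1435 CPM), CG43147 and CG31872 (1340.2, 23.7 and 813 CPM). The gene msopa had 1614, 22.3 and 728 CPM, and Spn38F, a serine protease inhibitor, had 930.3, 11.5 and 482 CPM. The share of the accessory gland list moved with these values, and its part in the other differences between pools was not tested beyond leaving these genes out. Without the 152 genes, 215 of 6565 genes (3.27%) still varied over 2-fold.

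A milder set of 101 genes was lowest in pool 2 by 2 to 10-fold. Its 10 members of highest mean are given here. Calr, calreticulin of the endoplasmic reticulum, had 558, 164 and 319 CPM. Hsc70-3, the BiP chaperone of the same organelle, had 573, 151 and 275 CPM, and Gp93, its Hsp90 chaperone, had 307, 77.2 and 181 CPM. Both were highest in pool 1. FBgn0014002, which was not matched to the annotation, had 532, 127 and 280.3 CPM, and Msr-110 had 285, 124 and 312 CPM, with pool 3 the highest. The ribosomal protein gene RpS15Aa had 184, 91.3 and 91.8 CPM, so its pools 2 and 3 were nearly equal. CG30395, CaBP1, CG15117 and su(w[a]) were the others, with ratios of highest to lowest pool of 5.72, 2.49, 2.68 and 9.19.

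A different group of 99 genes was highest in pool 1 and lowest in pool 3 with a range over 2-fold. These are 99 of all 6717 genes, of which 367 (5.46%) varied over 2-fold in any order of pools. Highest in pool 1 and lowest in pool 3, with a range of any size, were 30.7% of the 6717. From the muscle list, 8 of the 13 genes of 10 CPM or more were in the group, namely Act57B, Mf, Mlc1, Mlc2, Prm, Tm2, bt and up, while the whole list of 17 took 0.128, 0.117 and 0.111% of the counts. With TMM scaling its shares were 0.124, 0.115 and 0.117%, so that pool 2 was the lowest. Act57B, a muscle actin, had 107, 71.7 and 41.1 CPM, and up, troponin T, had 60.0, 42.0 and 19.9 CPM. Yet Act87E, another actin of the list, had 603, 645 and 727 CPM, with pool 3 the highest, and sls, the titin-like protein of the sarcomere, had 87.2, 85.5 and 96.9 CPM. From the fat body list, which took 0.0414, 0.0355 and 0.0280%, 3 of the 5 genes of 10 CPM or more, Fbp1, Fbp2 and Obp99b, were in the group, and Fbp1, the larval serum protein receptor, had 38.1, 19.2 and 6.94 CPM. Tsf1, the iron carrier of hemolymph, was even, with 205, 208 and 199 CPM, and apolpp, the lipoprotein of hemolymph, had 74.4, 72.3 and 52.3 CPM. From the heat shock list, 3 of the 13 genes of 10 CPM or more, Hsp26 (387, 240.1 and 156 CPM), Hsp68 and Hsp70Bb, were in it. lncRNA:Hsromega, a stress-responsive noncoding RNA, had 69.0, 44.0 and 23.8 CPM. Hsp70Bb belongs to near-identical copies, so its value is uncertain. The collagen IV genes Col4a1 (25.7, 18.9 and 3.60 CPM) and vkg (15.7, 12.03 and 3.39 CPM) were ordered in the same way. These collagen genes and lncRNA:Hsromega, which no list holds, were chosen after their values had been seen. The other list members in the group were RpL27, RpS19a, nht, Amy-d, Pglym78, mRpS30 and Prosbeta2. CG18628, the leading gene of the whole set, was the highest member of this group.

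Gene length moved with the difference between pools 1 and 3 as well. Without the 152 genes above, the median log2 ratio of pool 1 to pool 3 was 0.29 for 216 genes with exons of up to 500 bases, 0.20 from 500 to 1000, 0.18 from 1000 to 2000, 0.12 from 2000 to 5000 and -0.011 above 5000 bases. TMM scaling lowers each of these by 0.12, which leaves almost no difference from 2000 to 5000 bases. The ratio of pool 2 to pool 3 fell in the same order, from 0.23 to -0.057. The ratio of pool 1 to pool 2 had no such order, at 0.062 for the shortest and 0.016 for the longest genes. The cause of this trend was not tested.

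Only 5 genes with a range over 2-fold had another order of pools than these. Amy-p, an amylase, had 64.4, 66.5 and 14.04 CPM. Cyp4g1, the cytochrome P450 of cuticular hydrocarbon synthesis in oenocytes, had 7.54, 61.6 and 2.31 CPM, and Erasp had 21.3, 22.9 and 4.57 CPM. Mur18B, a mucin-related gene, had 0.554, 30.3 and 17.9 CPM, while Plp, pericentrin-like protein of the centrosome, had 18.1, 22.2 and 38.4 CPM. Cyp4g1 was thus high in pool 2 alone and Mur18B nearly absent from pool 1 alone. The lists of ovary follicle and yolk genes, neurons, eye and hemocytes took 0.00307, 0.00505, 0.00641 and 0.00148% of the counts. The accessory gland, muscle and fat body lists, at 0.729, 0.119 and 0.0350% in the mean, were above both the germline stem cell and the hub list. These shares are sums over lists of different length. The 4 hub genes had a median of 24.2 CPM and the germline stem cell list 2.55. The medians of the accessory gland, muscle and fat body lists were 60.4, 26.7 and 6.38 CPM. Of the 5 hemocyte genes, Pxn, a peroxidase, had 8.83 ± 2.02 CPM, Hml, hemolectin, 5.43 ± 1.87 CPM, and the receptors NimC1, eater and Sr-CI had 0.233 ± 0.183, 0.122 ± 0.0577 and 0.207 ± 0.146 CPM. The yolk protein genes differed, with 9.14, 8.53 and 10.9 CPM for Yp3 but 0.0358 ± 0.0621 and 0.0907 ± 0.0825 CPM for Yp1 and Yp2. The leading members of these lists were Arr1 of the eye list and brp and Cp15 of the neuron and ovary lists, at 28.7 ± 3.95, 17.2 ± 4.53 and 16.0 ± 1.23 CPM. Rh4 and norpA of the eye list had 12.4 ± 2.11 and 6.29 ± 0.658 CPM, nSyb and cpx of the neuron list 13.3 ± 1.22 and 9.99 ± 0.374 CPM, and the chorion gene Cp18 3.22 ± 0.856 CPM. The gut list was led by Amy-p and Amy-d, with the trypsin genes alphaTry and betaTry at 1.39 ± 1.22 and 0.568 ± 0.747 CPM.

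**Figure D5:**
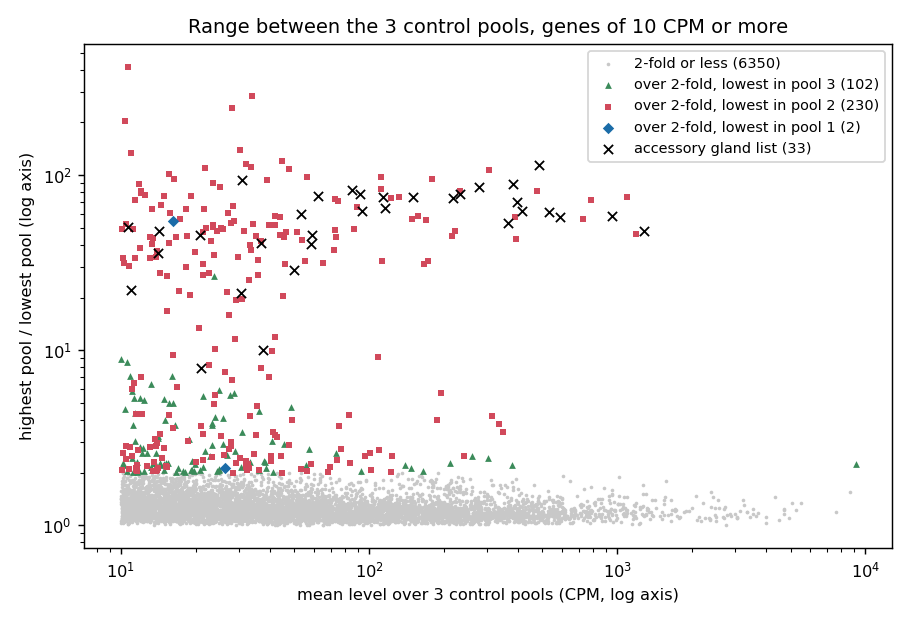
Ratio of the highest to the lowest of the 3 control pools (y axis) against the mean level in CPM (x axis), both log axes, for the 6717 genes of 10 CPM or more. Genes over 2-fold are marked by the pool in which they were lowest, and crosses mark the 33 accessory gland list genes. The upper band, above 10-fold, is made up almost wholly of genes lowest in pool 2.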

How the data were processed

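Gene counts were deposited by the authors as whole numbers, 1 file per sample. Per the labels and the study's methods, reads were trimmed with cutadapt, aligned to the dm6 genome with RNA STAR and assigned to Ensembl genes with featureCounts on Galaxy. Strand and multiple-mapping settings are not given in the sources used here, so overlapping genes, antisense genes and near-identical copies are uncertain. CPM was computed from the counts of the 3 control samples, and CPM per kilobase from the union of annotated exons in an Ensembl annotation of the same assembly, which is a later release than the BDGP6 file the authors named, so gene models may differ. Of 17559 identifiers, 17253 were matched, and 0 rows named no gene. A table with 6 columns of per-sample values lacked sample labels and was not used. A table of the authors' comparison (fold changes, log2 CPM, F and p-values) was not used.

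Every value is a description of 1 group, so no test was run. Spread was given as SD and CV over the 3 pools, beside the CV of Poisson counting, and as the common biological coefficient of variation of edgeR 4.0.16 (R 4.3.3) with an intercept only, TMM scaling and filterByExpr, which was tested on simulated data. DESeq2 1.42.0 gave size factors as an alternative. Python 3.11.15, pandas 2.3.3, scipy 1.17.1 and matplotlib 3.10.9 were used. Intervals are exact binomial at 95%, and the floor is 3 counts. At 18047619 to 20282355 counts per sample, counting error was small for all but the lowest genes.

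The genes described and the 28 gene lists were chosen with earlier results of these data known. The identifier of nanos, first matched to another gene through a synonym, was corrected after values were seen. Genes were named by rule: the 30 of highest mean CPM, the next 15 by CPM per kilobase, the 20 of widest range at 10 CPM or more, the 10 most even at 100 CPM or more, the 3 highest of each list, and the highest of each arm and biotype. Other genes named, the paralog pairs chosen by hand and the sets of genes low in pool 2 or 3 were chosen after values were seen. Mst57Da and Mst57Db were moved from the sperm tail list to the accessory gland list, and Mst57Dc added to it, after their values were seen. Alternatives covered scaling, filters on low counts, gene length, leaving out a replicate, leaving out gene sets and adding w-cup, which was added after its value was seen.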

Additional observations from a re-analysis of the deposited data

How the results depend on the processing

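Of 227 alternative values, 207 kept within the spread between pools (or, for counts of genes, within 1.5 times) and 20 moved. Many of the 207 could not have moved. Leaving out 1 pool cannot shift a mean share of counts beyond the SD of the pools. Leaving out the mitochondrial genes, which had no counts, changes nothing. The 207 are therefore no measure of how robust the results are. Ranked by CPM per kilobase, the 10, 100 and 1000 highest genes held 3.69, 22.3 and 60.1% of the counts. The median CV was 14.5% for genes of 1 CPM or more and 16.9% for all genes counted in every pool, and from 6.97% to 12.3% with 1 pool left out, lowest without pool 3. Genes over 2-fold numbered 1322 from 1 CPM, 2820 without a filter and 57 from 100 CPM. They numbered 171 without pool 2, 180 without pool 1 and 270 without pool 3. They numbered 215 without the genes over 10-fold lower in pool 2, an alternative added after the data were seen. With w-cup, also added then, the comet and cup list took 0.806% of the counts. The common biological coefficient of variation ran from 0.201 to 0.307 with 1 pool left out. The ratio of median CPM of X to the 4 large autosomal arms (0.760) was 0.859 without a filter, 0.835 from 10 CPM and 0.637 per kilobase. It was 0.743 to 0.789 with 1 pool left out and 0.773 without the genes low in pool 2. Fewer genes or pools account for changes in counts by construction, and the cause of the others was not tested. No paired analysis was possible because only 1 group is described. The planned share of promoters with a motif was not run, since the promoter sequences were not used here. Genes under 1 CPM rest on few counts (median counting CV 52.2%).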
